A study of Mus musculus with 8 samples.

Results

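The levels of 7 podocyte genes were followed through 8 mouse kidney libraries: Nphs1, Podxl, Synpo, Wt1, Cd2ap, Ptpro and Magi2. They were taken by gene symbol, and all 7 were found among 20245 entries. All 7 reached 1 FPKM (fragment counts scaled by transcript length and by library size) in each of the 8 libraries and so passed the filter on low values. In polycystic kidneys under vehicle Nphs1 passed the test as lower and Cd2ap as higher, with 2 libraries per group. The Nphs1 result was lost under 8 of 16 alternative analyses and that of Cd2ap under 3. Podxl, Ptpro and Magi2 had lower values without passing the test, and Synpo and Wt1 had overlapping values.

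Podocytes are the epithelial cells that wrap the capillaries of the glomerulus, the filter of the kidney. Their foot processes interlock, and neighbouring processes are joined by the slit diaphragm, a protein sheet that holds back plasma proteins. Nephrin spans the slit, adaptor and scaffold proteins tie it to actin, a negatively charged coat keeps the processes apart, and the transcription factor WT1 maintains the podocyte programme. Several of these genes are also transcribed elsewhere: Podxl in endothelium, Wt1 in mesothelium and Cd2ap in many epithelia and lymphocytes.

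The libraries came from poly(A) RNA of whole kidneys of C57BL/6 mice, 2 in each of 4 groups. WT_DMSO and WT_FP are wild-type kidneys given DMSO, the vehicle, or FP. FP stands for flavopiridol in the series design, a drug that blocks CDK9 and other cyclin-dependent kinases. PKD_DMSO and PKD_FP are kidneys with autosomal dominant polycystic kidney disease given the same. The sources used here do not give the mutated gene, any Cre driver, the dose, the treatment time or the age. Whether the 2 libraries of a group come from different animals is not stated in the labels. The p-values therefore reflect only how far these libraries spread, which may be technical.

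FPKM summed to between 486060 and 572823 per library, and 12790 to 13813 entries reached 1 FPKM. The sources used here give no read depth, so no counting interval or detection limit was computed. Umod, a kidney gene of the thick ascending limb, lay between 717 and 1291 FPKM in all 8 libraries. Differences are in log2(FPKM + 1), a scale that understates changes of low genes. They were tested with limma, with Benjamini-Hochberg adjustment over 14391 genes and a threshold of 0.05.

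Levels per transcript length placed the 7 genes in a similar order in both wild-type groups. In WT_DMSO, Podxl was highest at 37.6 ± 1.77 FPKM (SD, n = 2), followed by Cd2ap at 27.9 ± 1.58, Synpo at 14.1 ± 1.77 and Nphs1 at 7.04 ± 1.29. Below them stood Ptpro at 4.80 ± 0.474, Wt1 at 4.53 ± 0.099 and Magi2 at 1.52 ± 0.113. The values of Ptpro and Wt1 overlapped, and no other neighbours in that order did. In PKD_DMSO the order began with Cd2ap at 67.1 ± 1.04 FPKM, above Podxl at 21.7 ± 14.3 and Synpo at 20.4 ± 9.22, whose values overlapped. Wt1 followed at 5.07 ± 2.88, then Nphs1 at 2.94 ± 1.24, Ptpro at 2.59 ± 1.44 and Magi2 at 1.10 ± 0.0636. Wt1 overlapped Nphs1 there, and Nphs1 overlapped Ptpro. With the drug, Podxl and Cd2ap overlapped at the top in WT_FP, while Cd2ap alone was at the top in PKD_FP.

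**Figure D1:**
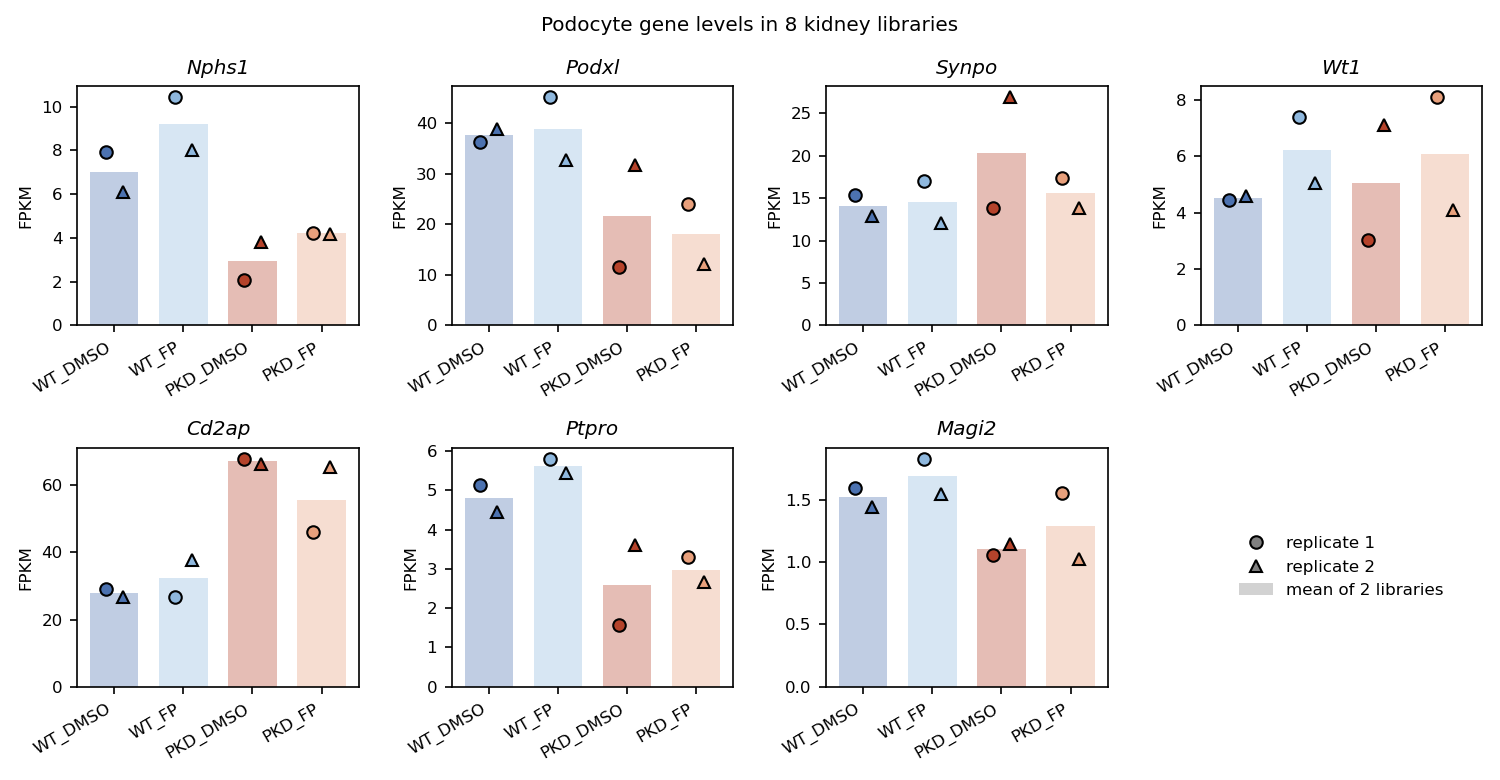
FPKM of the 7 podocyte genes (vertical axes, each from 0) in the 4 groups. Points are single libraries, circles for replicate 1 and triangles for replicate 2, and bars are means of 2 libraries. All 4 PKD libraries lie below all 4 WT libraries for Nphs1, Podxl and Ptpro, and above them for Cd2ap.

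Among the slit diaphragm genes, Nphs1 was called lower and Cd2ap higher in polycystic than in wild-type kidneys under vehicle, and Magi2 was not called. Nphs1 encodes nephrin, the transmembrane protein that bridges the slit (mouse chromosome 7, 30458207 to 30488623, GRCm38). Its level was 7.95 and 6.12 FPKM in the WT_DMSO libraries and 2.06 and 3.82 FPKM in the PKD_DMSO libraries. Both polycystic libraries were below both wild-type libraries. The log2 difference was −1.06 ± 0.26 (SE; limma, adjusted p = 0.0314). Across all genes tested, 7.52% were called lower in this comparison. Fewer podocytes and less RNA per podocyte cannot be told apart in whole-kidney RNA, here and in what follows. The call for Nphs1 ended with replicate number as a block (−1.06; limma, adjusted p = 0.0608) and in a fit of the 4 vehicle libraries (−1.06; limma, adjusted p = 0.0736). It also ended without WT_DMSO replicate 1 (−0.89), WT_DMSO replicate 2 (−1.22), PKD_DMSO replicate 1 (−0.73), PKD_DMSO replicate 2 (−1.38), PKD_FP replicate 1 or PKD_FP replicate 2 (−1.06 each). Nphs1os, an antisense gene sharing 597 exonic bases with Nphs1, was listed at 0.06 FPKM or less in every library. The processed pseudogene Rps12-ps4, on the other strand, shares 183 exonic bases with Nphs1, so the Nphs1 reads may not all be its own.

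Cd2ap encodes an adaptor that links nephrin to actin and endocytosis (chromosome 17, 42748887 to 42876707). It stood at 29.04 and 26.81 FPKM in WT_DMSO and at 67.84 and 66.37 FPKM in PKD_DMSO. The polycystic libraries lay far above the wild-type ones, and the log2 difference was 1.24 ± 0.22 (limma, adjusted p = 0.0128). Of all genes tested, 14.8% were called higher. The call ended without WT_DMSO replicate 2 (1.18; limma, adjusted p = 0.0566), PKD_DMSO replicate 1 (1.22) or PKD_DMSO replicate 2 (1.25). Genes of other cells rose in the same libraries: 4 of 6 parietal epithelial markers, 2 of 4 mesothelial markers and 6 of 6 macrophage markers tested were called higher. Without PKD_DMSO replicate 2 the calls of both mesothelial markers (Msln and Krt19), of the parietal marker Scin and of the macrophage markers Cd68 and Csf1r ended, while the other 7 held under all 16 alternatives. The part of those cells in the Cd2ap difference was not tested.

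Magi2 encodes a scaffold with WW and PDZ domains that binds nephrin and synaptopodin (chromosome 5, 19219387 to 20704792). Its levels were near the filter, at 1.60 and 1.44 FPKM in WT_DMSO and 1.06 and 1.15 FPKM in PKD_DMSO. Polycystic libraries were below wild-type ones, but the log2 difference of −0.26 had an interval of −0.73 to 0.21 (95%; limma, adjusted p = 0.38). In GENCODE it shares 203 exonic bases with Gm29254 on the same strand, so its reads may not all be its own. RefSeq (GRCm38.p6) gives Magi2 more than 1 start, which a gene-level FPKM cannot separate, and 2 of their promoters are shown because they differ in base composition. Each run covers the 250 bases before the start, 5′ to 3′ on the plus strand, at chr5:19226796-19227045 and chr5:19907268-19907517. Capitals mark matches, on either strand, to 3 motifs: GCGTGGG (a core bound by WT1 and EGR factors), CANNTG (the E-box) and TAATTA (bound by LIM homeodomain factors such as LMX1B).
Magi2 upstream start: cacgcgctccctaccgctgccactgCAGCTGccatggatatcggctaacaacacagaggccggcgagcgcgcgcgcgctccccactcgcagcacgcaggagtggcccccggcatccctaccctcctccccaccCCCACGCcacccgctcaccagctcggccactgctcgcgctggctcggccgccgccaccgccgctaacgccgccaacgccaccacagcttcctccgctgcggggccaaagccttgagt
Magi2 downstream start: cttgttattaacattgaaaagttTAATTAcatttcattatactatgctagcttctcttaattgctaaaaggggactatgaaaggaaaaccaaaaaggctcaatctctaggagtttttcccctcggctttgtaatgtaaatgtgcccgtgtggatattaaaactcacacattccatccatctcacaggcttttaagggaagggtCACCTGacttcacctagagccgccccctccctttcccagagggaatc
The upstream one holds an E-box and a GCGTGGG match on the minus strand, with 72% G or C and 29 CpG pairs. The downstream one holds an E-box and a TAATTA match, with 41.2% G or C and 3 CpG pairs. Among 32536 promoter windows of this length E-boxes were in 66.2%, GCGTGGG in 4.3% and TAATTA in 4.8%, and the median window had 6 CpG pairs. The marked matches do not overlap each other. They describe letters, and binding was not measured.

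Of the genes of the podocyte surface, Podxl encodes podocalyxin, the sialylated protein of the negatively charged coat (chromosome 6, 31519493 to 31563937). It was listed at 36.30 and 38.81 FPKM in WT_DMSO and at 11.52 and 31.78 FPKM in PKD_DMSO. The polycystic libraries were both lower, yet far apart from each other. Summed endothelial markers, listed further on, were also lowest in PKD_DMSO replicate 1, at 79.51 FPKM. In PKD_FP replicate 2, where Podxl was at 12.14 FPKM, they summed to 271.74 FPKM, the highest polycystic value. The largest parts of that sum were Plvap (110.01 FPKM) and Emcn (62.16 FPKM). Kdr (2.24 against 3.64 FPKM) and Plvap (110.01 against 114.18 FPKM) were lower there than in PKD_FP replicate 1, as Podxl was. The other endothelial markers were higher. The part of endothelium in the Podxl values was not tested. The log2 difference of −0.93 ± 0.48 did not pass (limma, adjusted p = 0.208), with a 95% interval of −2.08 to 0.22. Without PKD_DMSO replicate 1 it was −0.23, and without PKD_DMSO replicate 2 it was −1.62.

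Ptpro encodes a receptor tyrosine phosphatase of the apical podocyte membrane, also called GLEPP1 (chromosome 6, 137252299 to 137464634). Its values were 5.13 and 4.46 FPKM in WT_DMSO against 1.57 and 3.61 FPKM in PKD_DMSO. The groups did not overlap, and the log2 difference of −0.75 ± 0.28 did not pass (limma, adjusted p = 0.103). At an unadjusted level the p was 0.0344. Leaving out PKD_DMSO replicate 1 gave −0.33 and leaving out PKD_DMSO replicate 2 gave −1.17. Its RefSeq promoter, shown because Ptpro was low in all 4 polycystic libraries, covers the 250 bases before the start at chr6:137252049-137252298 on the plus strand, with matches to the same 3 motifs in capitals.
Ptpro: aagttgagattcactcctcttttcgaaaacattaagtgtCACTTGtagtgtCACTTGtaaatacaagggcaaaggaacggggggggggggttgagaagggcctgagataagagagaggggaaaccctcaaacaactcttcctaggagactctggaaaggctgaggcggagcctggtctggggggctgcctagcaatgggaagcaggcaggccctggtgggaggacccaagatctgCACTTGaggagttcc
The window holds 3 E-boxes, all reading CACTTG, at −211, −199 and −15 from the start, and no match to the other motifs searched, TGCTGA included. It has 3 CpG pairs and 53.6% G or C. RefSeq promoters were matched for 4 of the 7 genes (Nphs1, Cd2ap, Ptpro and Magi2). Nphs1, also low in all 4 polycystic libraries, had no match to any motif in its window. Cd2ap, high in all 4, had 2 E-boxes. The windows of Nphs1 and Cd2ap overlap exons and are not printed. Whether the motifs bear on the levels was not tested.

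Synpo encodes synaptopodin, an actin-associated protein of the foot processes (chromosome 18). It was at 15.38 and 12.88 FPKM in WT_DMSO and at 13.85 and 26.89 FPKM in PKD_DMSO. PKD_DMSO replicate 2 was the highest library of all 8, and the other polycystic library lay within the wild-type range. The log2 difference was 0.43, with a 95% interval of −0.33 to 1.19 (limma, adjusted p = 0.363). Without PKD_DMSO replicate 2 it was −0.02.

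Wt1 encodes the zinc finger transcription factor of podocyte nuclei (chromosome 2, 105126529 to 105173614). Its 2 WT_DMSO values, 4.46 and 4.60 FPKM, lay between the PKD_DMSO values of 3.03 and 7.11 FPKM. The difference of 0.05 had a 95% interval of −0.91 to 1.01 (limma, adjusted p = 0.944). It was −0.46 without PKD_DMSO replicate 2, 0.55 without PKD_DMSO replicate 1, −0.08 after median-of-ratios scaling and −0.16 after quantile normalization.

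Counted together under vehicle, 1 of the 7 genes was called higher and 1 lower by limma, where 22.3% of all genes were called in either direction. At an unadjusted p under 0.05 these counts were 1 and 2, with 38.0% of all genes under it. Without overlap between the groups, 1 of 7 was higher and 4 of 7 were lower, where 41.2% and 24.5% of all genes tested were. The median log2 difference of the 7 was −0.26, and that of all genes was 0.12.

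**Figure D2:**
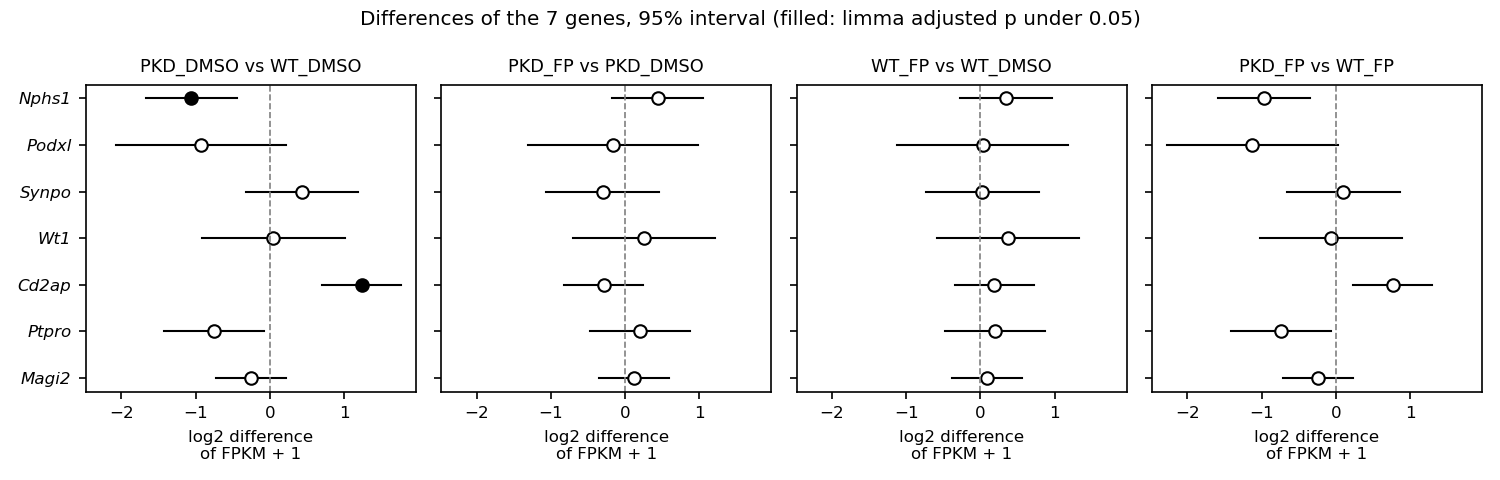
Log2 differences of FPKM + 1 (horizontal axes) for the 7 genes (rows) in 4 comparisons. Points are limma estimates from all 8 libraries, lines are 95% intervals, and filled points passed an adjusted p of 0.05. Under vehicle Nphs1 (−1.06) and Cd2ap (1.24) are filled, and no point is filled in the other 3 comparisons.

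Under flavopiridol none of the 7 genes passed the test between genotypes, and Nphs1 came closest. Nphs1 was at 10.43 and 8.02 FPKM in WT_FP and at 4.22 and 4.18 FPKM in PKD_FP, a log2 difference of −0.97 ± 0.26 (limma, adjusted p = 0.0532). That difference did pass with median-of-ratios scaling (−1.05; limma, adjusted p = 0.0435) with quantile normalization (−1.03; limma, adjusted p = 0.0353) and without PKD_DMSO replicate 1 (−0.97; limma, adjusted p = 0.0498). Over its alternatives the adjusted p ran from 0.0353 to 0.24. Cd2ap stood at 26.85 and 37.80 FPKM in WT_FP and at 46.04 and 65.37 FPKM in PKD_FP, a difference of 0.77 ± 0.22 (limma, adjusted p = 0.0667). The 2 PKD_FP libraries exceeded both WT_FP libraries.

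Podxl measured 45.08 and 32.70 FPKM in WT_FP against 23.92 and 12.14 FPKM in PKD_FP, a log2 difference of −1.12 ± 0.48 (limma, adjusted p = 0.168). It was −0.66 without PKD_FP replicate 2 and −1.58 without PKD_FP replicate 1. Ptpro measured 5.80 and 5.45 FPKM against 3.30 and 2.66 FPKM, a difference of −0.74 ± 0.28 (limma, adjusted p = 0.131). Neither gene's groups overlapped. Wt1 (7.42 and 5.06 against 8.10 and 4.11 FPKM), Synpo (17.02 and 12.10 against 17.33 and 13.85 FPKM) and Magi2 (1.83 and 1.55 against 1.56 and 1.03 FPKM) overlapped between the genotypes.

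By limma 0 of the 7 genes were called in either direction under the drug. At an unadjusted p under 0.05, 1 was higher and 2 were lower, and 31.4% of all genes were under it. Of all genes tested, 13.9% were called, 8.71% higher and 5.23% lower. Without overlap between the groups, 1 of 7 was higher and 3 of 7 were lower, where 34.6% and 25.2% of all genes were. Over all 8 libraries, every polycystic value lay below every wild-type value for 3 of the 7 genes, Nphs1, Podxl and Ptpro, and above it for 1, Cd2ap. Of all genes tested, 11.7% were lower and 22.0% higher in that sense.

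The drug itself gave no call among the 7 genes. For PKD_FP against PKD_DMSO limma called 0 of 7, with 0 at an unadjusted p under 0.05. Of all genes, 0.0139% were called, 0.00695% in each direction, and 19.5% were under the unadjusted level. The largest of the 7 differences was that of Nphs1, 0.44 with a 95% interval of −0.18 to 1.05 (limma, adjusted p = 0.396). It was 0.11 without PKD_DMSO replicate 1 and 0.77 without PKD_DMSO replicate 2. Both PKD_FP values of Nphs1, 4.22 and 4.18 FPKM, were above both PKD_DMSO values, 2.06 and 3.82 FPKM. Cd2ap was lower in both PKD_FP libraries than in both PKD_DMSO libraries, with a difference of −0.29 and an interval of −0.82 to 0.25 (limma, adjusted p = 0.511). Without PKD_FP replicate 2 it was −0.53, and without PKD_FP replicate 1 it was −0.04. Groups that did not overlap were common in this comparison, at 31.4% of genes higher and 25.2% lower.

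For WT_FP against WT_DMSO limma again called 0 of 7, with 0 at an unadjusted p under 0.05, against 0 of 14391 genes called and 1.27% under the unadjusted level. All 7 differences were above 0, from 0.03 for Synpo to 0.37 for Wt1, where the median of all genes was 0.09. Podxl and Synpo were below 0 after median-of-ratios scaling (−0.09 each), and Podxl, Synpo and Magi2 after quantile normalization. Nphs1, Wt1 and Ptpro did not overlap between these groups and were higher with the drug, as 16.6% of genes were, while 5.32% were lower in that sense. The interaction of genotype and drug, which asks whether the drug difference depends on genotype, called 0 of 7 genes and had 0 at an unadjusted p under 0.05, with 0 calls and 11.2% under that level among all genes. Its estimates ran from −0.47 for Cd2ap (95% interval −1.22 to 0.28) to 0.09 for Nphs1 (−0.78 to 0.96). The widest interval was that of Podxl, −1.82 to 1.43.

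Setting each gene against Wt1 in the same library gives levels per unit of a gene that podocytes and mesothelium both transcribe. The ratios are therefore not levels per podocyte. Mesothelial markers, most of their sum Krt19, summed higher in the PKD libraries, as listed further on. The part of mesothelium in the Wt1 values was not tested. FPKM is per transcript length, so these ratios compare levels between genes. Nphs1 was at 1.33 to 1.78 times the Wt1 level in the 4 WT libraries and at 0.521 to 1.02 times in the 4 PKD libraries. Podxl ran from 6.08 to 8.44 in WT and from 2.95 to 4.47 in PKD. Ptpro ran from 0.782 to 1.15 in WT and from 0.407 to 0.647 in PKD. For these 3 genes the genotypes did not overlap. Of the 14390 genes tested other than Wt1, 2.51% were lower and 7.11% higher without overlap when set against Wt1 in the same way.

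The ratios of the 3 remaining genes overlapped between genotypes. Synpo ran from 2.29 to 3.45 times Wt1 in WT and from 2.14 to 4.57 in PKD. Cd2ap ran from 3.62 to 7.47 in WT and from 5.68 to 22.4 in PKD, its widest range being among polycystic libraries. Magi2 ran from 0.247 to 0.359 in WT and from 0.162 to 0.350 in PKD. These ratios were chosen after the values were known and are given without a test.

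**Figure D3:**
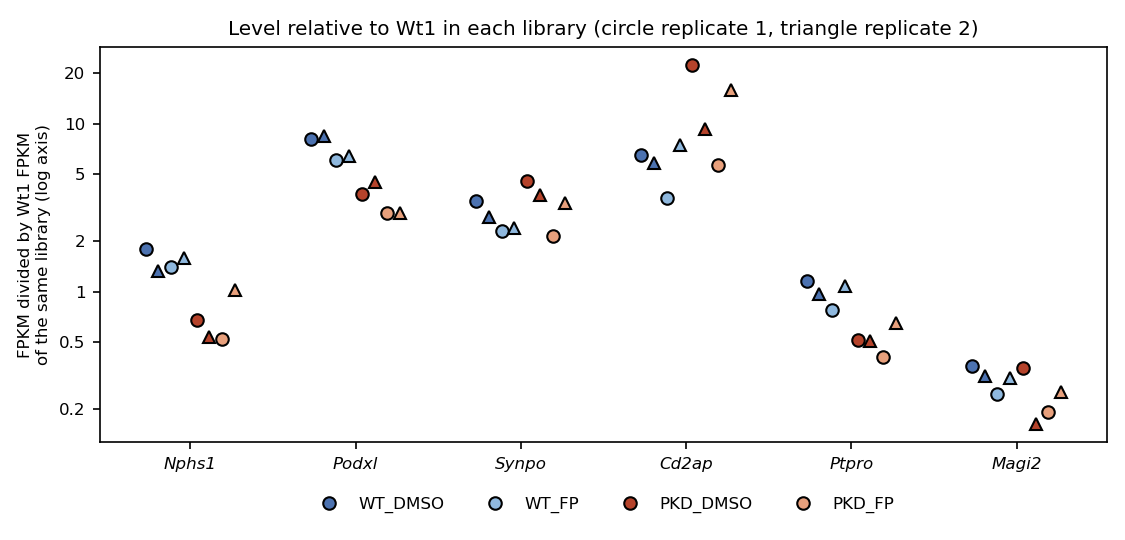
FPKM of 6 genes divided by the Wt1 FPKM of the same library (vertical log axis), 1 point per library, coloured by group, circles for replicate 1 and triangles for replicate 2. Nphs1, Podxl and Ptpro lie lower in all 4 PKD than in all 4 WT libraries, and the other 3 genes overlap.

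Spread within the polycystic groups was wide and shared by several of the genes. In PKD_DMSO replicate 1 and PKD_FP replicate 2 Podxl stood at 11.52 and 12.14 FPKM, and in the other 2 polycystic libraries at 31.78 and 23.92 FPKM. Wt1 divided the same libraries, with 3.03 and 4.11 FPKM against 7.11 and 8.10 FPKM, and so did Ptpro, with 1.57 and 2.66 FPKM against 3.61 and 3.30 FPKM. The lower pair thus holds 1 vehicle and 1 drug library. Synpo (13.85 and 13.85 against 26.89 and 17.33 FPKM) and Magi2 (1.06 and 1.03 against 1.15 and 1.56 FPKM) divided them so too. Nphs1 did not, with 2.06 and 4.18 FPKM against 3.82 and 4.22 FPKM. Nor did Cd2ap, whose lowest polycystic value, 46.04 FPKM, was in PKD_FP replicate 1. These pairs were formed after the values were known. The share of all genes that divide the polycystic libraries this way was not computed, so the division is not shown to be particular to these genes.

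Markers of other kidney cells were summed in each library. The 8 endothelial markers summed to 231.54 to 467.68 FPKM in WT_DMSO, 276.20 to 502.12 in WT_FP, 79.51 to 257.63 in PKD_DMSO and 223.87 to 271.74 in PKD_FP. By limma 0 of the 8 were called in PKD_DMSO against WT_DMSO, with 1 lower at an unadjusted p under 0.05, and all 8 estimates were below 0. The 6 mesangial and pericyte markers overlapped between genotypes, at 47.42 to 86.54 FPKM in WT_DMSO and 52.92 to 101.29 in PKD_DMSO, with 0 called by limma and 0 at an unadjusted p under 0.05.

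The 6 macrophage markers summed to 44.33 to 85.61 FPKM in the WT libraries and 419.37 to 807.51 FPKM in the PKD libraries. The 6 parietal epithelial markers summed to 58.54 to 129.25 FPKM in WT and 150.11 to 252.93 FPKM in PKD. Under vehicle 4 of them were called higher, where 14.8% of all genes were, while Pax2 (−0.19) and Ncam1 (0.06) were not. The 5 mesothelial markers summed to 31.31 to 113.78 FPKM in WT and 206.72 to 378.22 FPKM in PKD, most of it Krt19, which other epithelia also make, while Lrrn4 was at 0.04 FPKM or less throughout. The 6 nephron progenitor markers, a list that includes genes of the developing kidney, summed to 10.15 to 15.52 FPKM in WT and 4.02 to 10.38 FPKM in PKD, and 1 of 4 tested, Cited1, was called lower under vehicle, where 7.52% of all genes were. That call held under 5 of 15 alternatives and ended with any 1 of the 8 libraries left out. The 7 tubule markers summed to 3617.48 to 4137.09 FPKM in WT and 1539.85 to 2221.22 FPKM in PKD, most of it Slc34a1, Umod and Aqp2. By limma 3 of the 7 were called lower under vehicle, where 7.52% of all genes were. Under flavopiridol 4 were, against 5.23% of all genes, and all 7 estimates were below 0 in both comparisons. Of these calls only those of Slc4a1 held under all 16 alternatives. The part of these shifts in the levels of the 7 podocyte genes was not tested.

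**Figure D4:**
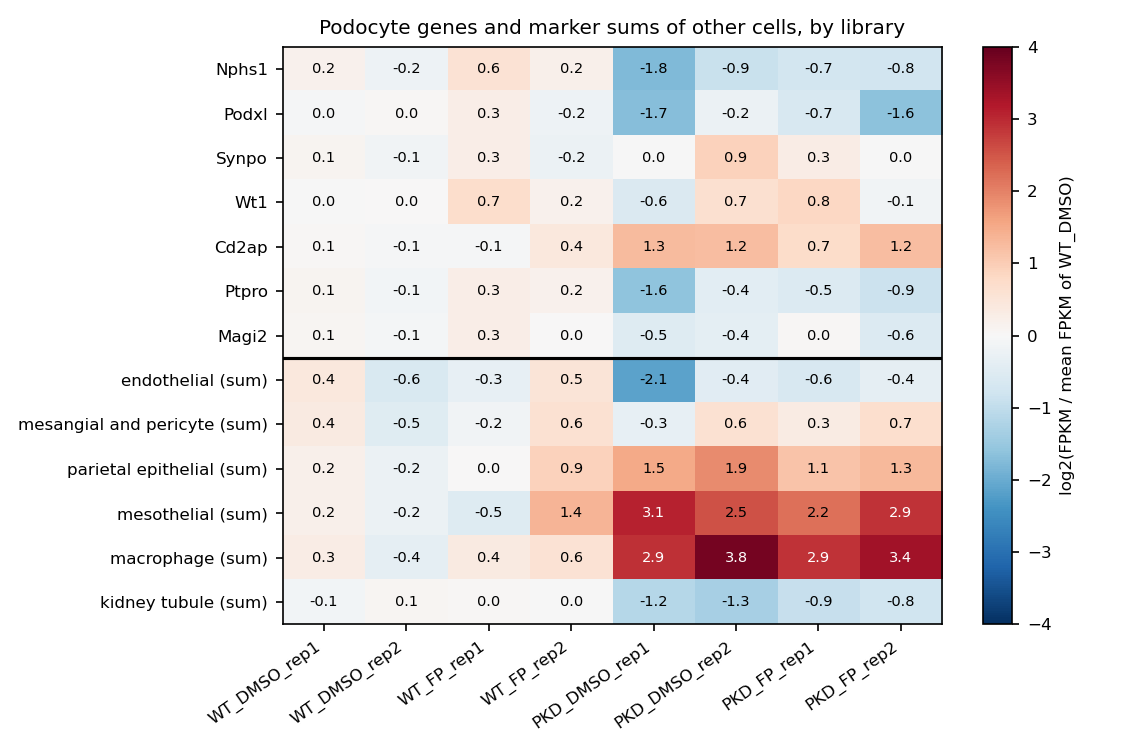
Log2 ratio of FPKM to the mean of the 2 WT_DMSO libraries (colour and printed value) for the 7 podocyte genes and for summed markers of 6 other cell classes (rows), in 8 libraries (columns). In PKD_DMSO replicate 1 Nphs1 (−1.77), Podxl (−1.70), Ptpro (−1.61) and the endothelial sum (−2.14) are all low. In PKD_FP replicate 2 Podxl is at −1.63 and the endothelial sum at −0.36. In every PKD library the macrophage sum is at 2.88 or above.

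Further podocyte genes came from 5 lists of 71 genes, many of which other kidney cells also express, and 65 of them passed the filter on low values. Under vehicle 17 were called higher and 4 lower in polycystic kidneys by limma, where 14.8% and 7.52% of all genes were. Their median log2 difference was 0.38, against 0.12 for all genes. Fewer were called in each direction without PKD_DMSO replicate 2, WT_DMSO replicate 1 or WT_DMSO replicate 2. Fewer were called lower without PKD_DMSO replicate 1. Calls among all genes also fell in each of these fits, so the drop is not shown to be particular to these lists.

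Among slit diaphragm partners and signalling genes 4 of 11 tested were called higher and 1 lower, where 14.8% and 7.52% of all genes were. The atypical protein kinase C gene Prkci rose by 1.22 ± 0.13, the giant cadherin gene Fat1 by 1.73 ± 0.20, the nephrin adaptor gene Nck2 by 0.83 ± 0.16 and the junction scaffold gene Tjp1 by 1.01 ± 0.29. The calls of Fat1 and Prkci held under every alternative. That of Nck2 ended after both rescalings and without 3 libraries (WT_DMSO replicate 1 and both PKD_DMSO replicates), and that of Tjp1 ended under 9 alternatives, 6 of them with 1 library left out. Trpc6, Crb2, Kirrel2 and Kirrel3 did not pass the filter.

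Of 17 cytoskeleton and adhesion genes tested, 7 were called higher and 2 lower, against 14.8% and 7.52% of all genes. The non-muscle myosin gene Myh9 rose by 1.61 ± 0.24 (limma, adjusted p = 0.00733), Anln, encoding the actin-binding protein anillin, by 1.34 ± 0.20, and the dystroglycan gene Dag1 by 1.41 ± 0.23. The integrin genes Itgb1 and Itga3 rose by 1.24 ± 0.26 and 1.65 ± 0.40. Rhpn1 changed by −1.19 ± 0.29 (limma, adjusted p = 0.0295). Of these the Myh9 call held under all 16 alternatives. Those of Dag1 and Anln ended without PKD_DMSO replicate 2, and those of Itgb1, Itga3 and Rhpn1 ended without 3, 6 and 4 of the libraries in turn.

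Of 9 transcription factor genes tested, 1 was called higher, the Hippo pathway factor gene Tead1, by 1.16 ± 0.21 (limma, adjusted p = 0.0133), and 0 were called lower. The Tead1 call was lost without either WT_DMSO replicate or PKD_DMSO replicate 2. At an unadjusted p under 0.05, 5 of the 9 were higher and 0 lower, where 38.0% of all genes were under it. Lmx1b did not pass the filter. Among 18 surface and secreted genes 2 were called higher and 1 lower, where 14.8% and 7.52% of all genes were. Pdpn, encoding podoplanin, rose by 2.39 ± 0.19 (limma, adjusted p = 0.00162), from 9.50 and 6.79 FPKM to 44.63 and 48.10 FPKM, a call that held under all 16 alternatives. Podoplanin is also made by lymphatic endothelium, fibroblasts and injured epithelium. Vegfa, the endothelial growth factor gene that podocytes and tubules express, was at 104.31 and 74.04 FPKM in WT_DMSO and at 44.76 and 38.22 FPKM in PKD_DMSO, a difference of −1.07 ± 0.23 (limma, adjusted p = 0.0199). That call ended without WT_DMSO replicate 1 or either PKD_DMSO replicate. Efnb1 rose by 0.59 ± 0.15, a call that held under 5 of the 16 alternatives.

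Of 10 glomerular basement membrane genes 3 rose under vehicle and 0 fell by limma, with 1 lower at an unadjusted p under 0.05. Among all genes 14.8% were called higher and 7.52% lower, and 38.0% were under the unadjusted level. Agrn, encoding the heparan sulfate proteoglycan agrin, rose by 1.72 ± 0.22, and the laminin genes Lama5 and Lamc1 rose by 1.21 ± 0.22 and 1.08 ± 0.26. The Agrn call held under all 16 alternatives, that of Lama5 ended without WT_DMSO replicate 2 or PKD_DMSO replicate 2, and that of Lamc1 ended without any of those or WT_DMSO replicate 1, with the block and in the fit of the vehicle groups. Col4a3, a collagen chain of the mature membrane, was called under flavopiridol, at 54.04 and 60.50 FPKM in WT_FP against 22.05 and 25.82 FPKM in PKD_FP (−1.23 ± 0.25; limma, adjusted p = 0.0254). Its call ended without any one of those 4 libraries. Over all 5 lists under flavopiridol 8 of the 65 genes were called higher and 4 lower, where 8.71% and 5.23% of all genes were. Fewer were called in each direction without either WT_FP replicate, either PKD_FP replicate or either PKD_DMSO replicate. Calls among all genes fell in those fits too, so the loss is not shown to be particular to these lists.

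**Figure D5:**
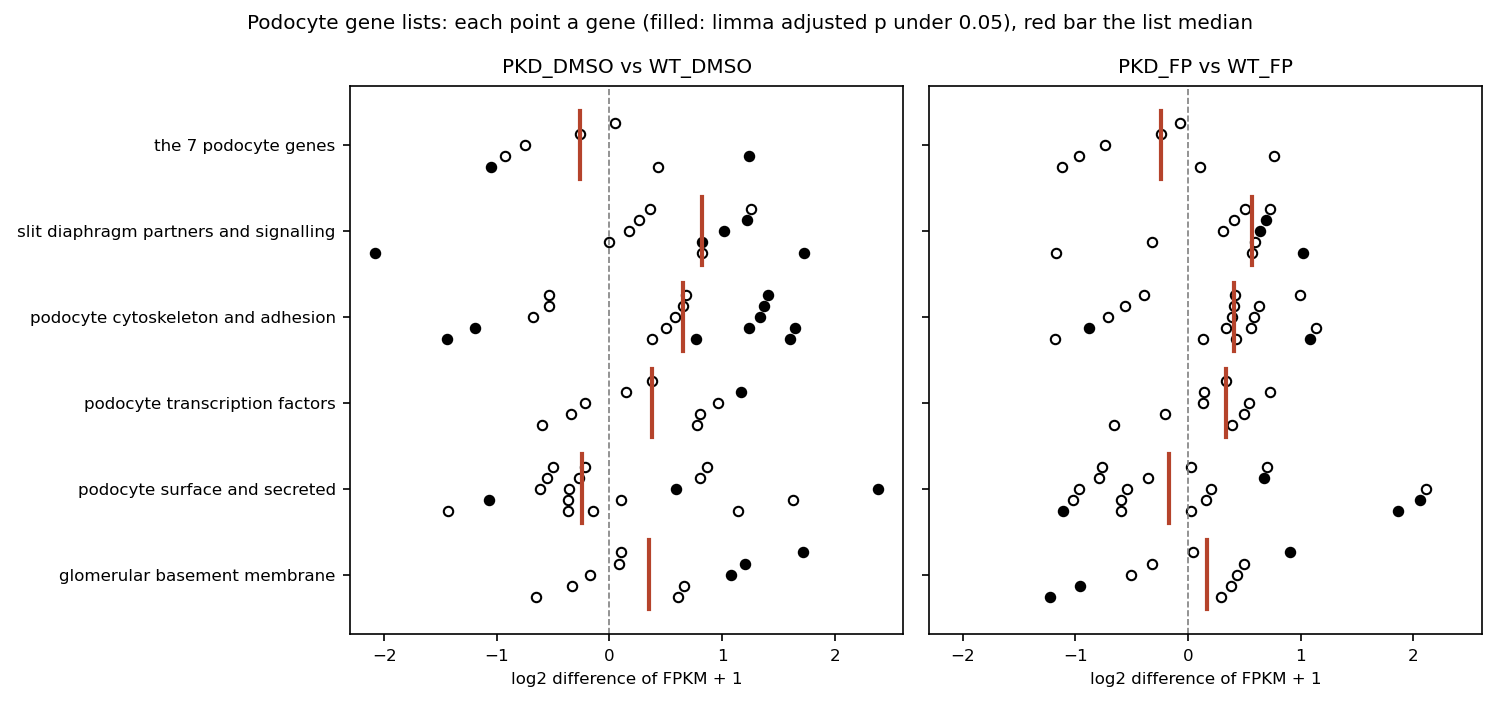
Log2 differences of FPKM + 1 (horizontal axes) for the 7 podocyte genes and 5 further lists (rows), PKD against WT under vehicle on the left and under flavopiridol on the right. Each point is a gene, filled where the limma adjusted p was under 0.05, and red bars are list medians; the 7 genes have medians of −0.26 and −0.24.

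Close relatives of the 7 genes were also read. Of 8 paralogs tested, 2 were called higher under vehicle by limma and 0 lower, with 0 lower at an unadjusted p under 0.05, where 14.8% and 7.52% of all genes were called. Ptprj, a receptor phosphatase related to Ptpro, rose by 0.89 ± 0.20, the opposite sign to Ptpro, and its call ended without any one of the 4 vehicle libraries. Egr1, an immediate-early factor whose zinc fingers resemble those of WT1, rose by 2.86 ± 0.35 (limma, adjusted p = 0.00461), from 3.64 and 4.40 FPKM to 35.65 and 35.05 FPKM, a call that held under all 16 alternatives. Podxl2, the relative of Podxl, was called higher under flavopiridol (1.21 ± 0.29; limma, adjusted p = 0.0397), the opposite sign to Podxl, a call that held under 8 of 16 alternatives and ended without any one of 6 libraries, WT_DMSO replicates excepted. Sh3kbp1, the relative of Cd2ap, stayed between 2.28 and 6.65 FPKM over the 8 libraries and passed in no comparison. Magi1 and Magi3, the relatives of Magi2, lay at 3.06 to 6.39 and 3.29 to 6.40 FPKM, without a call.

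The genes whose levels ran most like each of the 7 were ranked by Pearson's r on log2(FPKM + 1) over the 8 libraries, among 13503 genes. Nphs1 was followed most closely by Ren1 (r = 0.977), which encodes renin of the juxtaglomerular cells, by Ntng2 (0.968) and by Gpr162 (0.961). Ren1 was at 44.69 to 67.42 FPKM in the WT libraries and 6.81 to 17.13 FPKM in the PKD libraries. Ptpro was followed by Hspa12a (0.982), Ntng2 (0.976) and Pygm (0.975). Podxl was followed by H2-Q5 (0.953), Ppard (0.932) and Myom2 (0.929), and Magi2 by Xrcc6bp1 (0.964), Hs3st6 (0.949) and Adrb1 (0.949).

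Cd2ap had the closest likeness of the 7, to Tmem123 and Ccdc136 (r = 0.993 each) and Kdm2b (0.989). Tmem123 was at 23.19 to 37.94 FPKM in WT and 43.46 to 71.67 FPKM in PKD. Synpo was followed by C1qtnf1 (0.948), Ror1 (0.935) and Galnt10 (0.921). Wt1 was followed by Ada (0.931), Gpc1 (0.86) and Foxd1 (0.847), the weakest first match of the 7. The 8 points fall in 4 groups and share that division, so these values carry no test.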

How the data were processed

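RNA of 8 mouse kidney libraries was analysed, 2 per group, grouped by the labels' titles. The authors deposited 1 table per library with values that were read as FPKM, rounded to 2 decimals. No unit stands in the file headers, so FPKM was inferred: the values times GENCODE M21 exonic length summed to within 1.046-fold over the libraries (plain sums 1.18-fold). Bowtie2, DESeq2 and mm10 are named, with no role, per the submitters' processing notes. The sources used here do not say which tool made the values.

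Deposited FPKM values were taken to log2(FPKM + 1), and a gene was kept where 2 or more libraries reached 1 FPKM (14391 genes). Entries with a repeated symbol (4) or a dash for a symbol (1) were left out. A model with 1 mean per group was fitted across the 8 libraries (limma 3.58.1, R 4.3.3; empirical Bayes, trend and robust), two-sided, Benjamini-Hochberg over all genes kept, threshold 0.05. The smallest two-sided p of a permutation test of 2 against 2 libraries is 0.33. The fit was tested on simulated data with independent noise for each gene, which does not bear on genes that shift together in these libraries.

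Named were all 7 members, up to 6 called genes per further list by adjusted p, relatives of the members, and the 3 genes most like each member by correlation among genes with a mean of at least 1 on the log2 scale. Nphs1os, Ren1, Tmem123, Umod, Col4a3 and the genes below the filter were named with their values already known. Members and lists were chosen with earlier results of these data known. Alternatives were no or a stricter filter (mean of 2 FPKM), a pseudocount of 0.1, median-of-ratios scaling, quantile normalization, replicate block, only the groups compared, no trend or robust setting, and each library left out. Some genes of the further lists are counted but not reported by name here.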

Additional observations from a re-analysis of the deposited data

How the results depend on the processing

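Of 548 values of the 7 genes under 16 alternatives, 490 kept direction and side of the threshold, 11 lost a call, 3 gained one and 44 changed sign. All sign changes were in differences that had not passed, and the cause was not tested. In PKD_DMSO vs WT_DMSO the counts were 1 higher and 1 lower. The lower count was 0 with the replicate block and 0 in the fit of only the groups compared, and with each library left out both counts ranged from 0 to 1. In PKD_FP vs WT_FP the lower count of 0 became 1 after median-of-ratios scaling and 1 after quantile normalization, and ranged from 0 to 1 with each library left out. The further podocyte lists, 17 higher and 4 lower under vehicle, ranged from 5 to 17 and 0 to 4 with a library left out, and 2 were lower without the low-value filter and 2 with the replicate block. Under flavopiridol their 8 higher and 4 lower ranged from 1 to 8 and 0 to 3, with 2 lower without the filter, 4 higher and 1 lower with the replicate block, and 1 and 1 in the fit of only the groups compared. A group left with 1 library is assumed to vary like the others. With any 1 library left out, calls among all genes also fell in both genotype comparisons.

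With the replicate block the Nphs1 difference of −1.06 had an adjusted p of 0.0608 (limma), and it changed no other call among the 7 genes. The labels say nothing of shared animals or days, and deviations of same-numbered libraries correlated from −0.515 to 0.485 between groups, so the numbers were not taken as pairs.

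Sign changes after median-of-ratios scaling were Wt1 under vehicle (−0.08) and, for WT_FP vs WT_DMSO, Podxl (−0.086) and Synpo (−0.086). After quantile normalization they were Wt1 (−0.16), and in WT_FP vs WT_DMSO Podxl (−0.004), Synpo (−0.074) and Magi2 (−0.037), and the interaction of Wt1 (0.027). These scalings moved the median of all genes from 0.12 to −0.01 under vehicle and the share of calls that were higher from 66.3% to 53.8% and 52.8%.

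Leaving out 1 library changed the sign of the following. In PKD_DMSO vs WT_DMSO, Synpo ranged from −0.022 to 0.89 and Wt1 from −0.46 to 0.55. In PKD_FP vs PKD_DMSO, Podxl ranged from −0.86 to 0.53, Synpo from −0.76 to 0.15, Wt1 from −0.25 to 0.76, Ptpro from −0.22 to 0.63 and Magi2 from −0.052 to 0.28. In WT_FP vs WT_DMSO, Podxl ranged from −0.19 to 0.26, Synpo from −0.20 to 0.26 and Cd2ap from −0.054 to 0.42. In PKD_FP vs WT_FP, Synpo ranged from −0.13 to 0.33 and Wt1 from −0.48 to 0.35. The interaction ranged from −0.24 to 0.42 for Nphs1, −0.89 to 0.50 for Podxl, −0.79 to 0.12 for Synpo, −0.62 to 0.39 for Wt1, −0.41 to 0.43 for Ptpro and −0.14 to 0.19 for Magi2. The depth is unknown, and Magi2, at 1.03 to 1.83 FPKM, did not pass the stricter filter.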
